A study of Mus musculus with 2 samples.

Results

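The developmental pluripotency associated genes Dppa2, Dppa3, Dppa4 and Dppa5a were followed as female mouse embryonic stem cells differentiated. All probe sets whose annotation names 1 of these 4 genes and no other were taken, which gave 5 of the 45101 probe sets on the array, 2 for Dppa2 and 1 for each of the others, or 4 of the 18193 genes measured. The differentiated sample was the PGK12.1 line after 15 days of embryoid body culture, set against the same line undifferentiated, at day 0. The series was made to follow expression of the X chromosome, with 2 active X chromosomes before differentiation and 1 after it, as the submitters saw by Xist RNA FISH. Per the labels, the line was derived from blastocysts of a 129 female mated with a (129 X PGK)F1 male, carried no other stated allele and was used at passages 14 to 18. Stem cells were kept with leukemia inhibitory factor on mouse fibroblast feeders, which were depleted by plating on gelatin before collection or differentiation. There was 1 array per condition, so no value has a replicate error and no difference was tested. The 4 genes were chosen with these values known, and everything below describes 1 pair of RNA samples from 1 cell line.

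Dppa2 and Dppa4 encode related nuclear proteins with a DNA-binding SAP domain. They act together on chromatin, keep a set of developmental promoters free of DNA methylation, and lie upstream of Dux and the Zscan4 genes of the 2-cell embryo. Dppa3, also called Stella or PGC7, protects the maternal genome from loss of methylation in the zygote, restrains the maintenance methylation factor UHRF1, and marks primordial germ cells and naive stem cells. Dppa5a, also called Esg1, encodes an RNA-binding protein with a KH domain and is used as a marker of pluripotent cells.

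All 5 probe sets gave a lower signal at day 15 than in undifferentiated cells, but the share of signal that was left differed widely. Dppa3 (probe set 1424295_at) had a signal of 152.6 at day 15, against 1101.2 in undifferentiated cells. It was 7.22-fold lower, and 13.9% of its undifferentiated signal was left.

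Dppa4 (1429597_at) had a signal of 1169.6 at day 15, against 3294.3 in undifferentiated cells, a 2.82-fold lower value with 35.5% of the signal left. Dppa2 was read by a pair of probe sets. The first (1429654_at) gave 1304.5 at day 15 and 3483.3 in undifferentiated cells (2.67-fold lower, 37.5% left). The brighter one (1453223_s_at), whose suffix s marks probes that can also match other transcripts, gave 1948.9 at day 15 and 3939.9 in undifferentiated cells (2.02-fold lower, 49.5% left). Both Dppa2 probe sets were thus lower at day 15, and the probe set without the suffix lay closer to Dppa4 than to its partner.

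Dppa5a (1416552_at) had a signal of 11467.3 at day 15, against 14473.8 in undifferentiated cells. This was 1.26-fold lower, with 79.2% of the signal left, the smallest difference among the 4 genes. Dppa5a thus retained 5.72 times the share that Dppa3 retained, a ratio that no common scaling factor for an array can change. RefSeq lists the pseudogenes Dppa5b and Dppa5c on the same chromosome as Dppa5a and a Dppa3 pseudogene on the X chromosome, and whether their transcripts add to these signals was not tested.

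**Figure D1:**
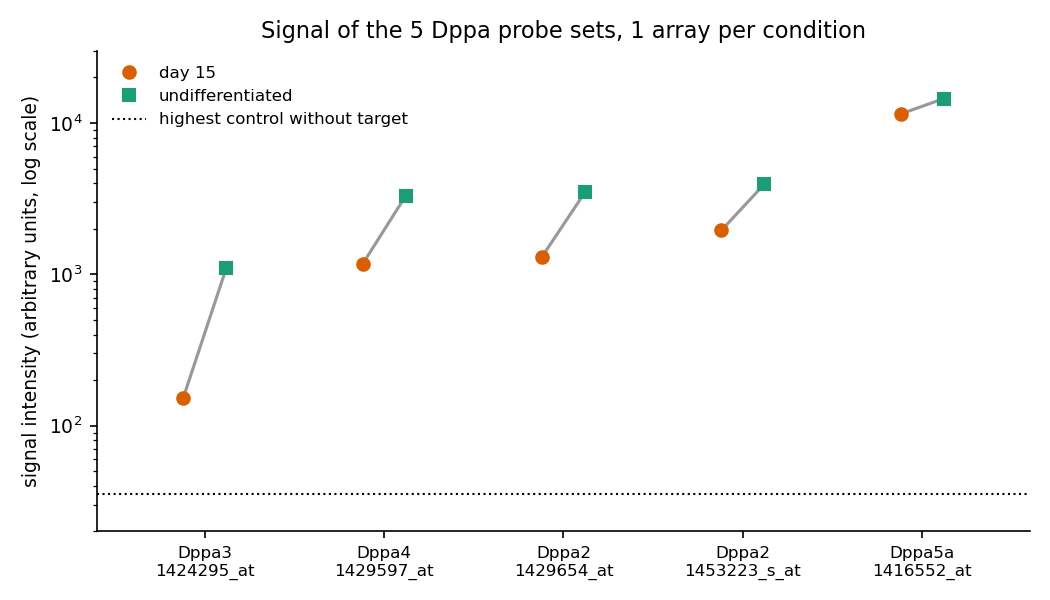
Signal intensity (log axis) of the 5 Dppa probe sets at day 15 (circles) and in undifferentiated cells (squares), 1 array each; the dotted line is the highest bacterial control without target, 35.6. Every circle lies below its square and above the dotted line, with the widest gap for Dppa3 (152.6 and 1101.2) and the narrowest for Dppa5a (11467.3 and 14473.8).

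For comparison across genes, signals were taken to log2(signal + 16), where the added 16 damps the differences of dim genes. A gene was represented by its brightest probe set, and differences are day 15 minus undifferentiated. On this scale the differences were -2.73 for Dppa3, -1.48 for Dppa4, -1.01 for Dppa2 (-1.41 for its other probe set) and -0.34 for Dppa5a. Dppa3, Dppa4 and Dppa2, 3 of the 4 members, were therefore at least 2-fold lower. Over the 11960 genes whose mean brightness reached the median of all probe sets, 8.41% were at least 2-fold lower and 16.5% at least 2-fold higher, with a median difference of 0.00052. The members were chosen on this contrast, so their count is not read against that share.

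The order Dppa3, Dppa4, Dppa2, Dppa5a, with Dppa3 lowest, can be set beside the disagreement of probe sets for a single gene. This is a yardstick and no test, since the genes were chosen on these values. Between 2 probe sets of 1 gene that disagreement had an SD of 0.74 on the log2 scale, measured over 5157 genes, and it leaves out variation between cultures. Dppa3 lay 1.25 below Dppa4 and between 1.32 and 1.72 below the Dppa2 probe sets. Dppa4 lay 1.15 below Dppa5a. These gaps were 1.54 to 2.31 times that SD. Dppa4 differed from the Dppa2 probe sets by 0.075 and 0.47, and the Dppa2 probe sets lay 1.07 and 0.67 below Dppa5a, which is 1.44 and 0.91 times the SD. The widest gap, 2.39 between Dppa3 and Dppa5a, was 3.22 times the SD.

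Among the 11960 genes Dppa3 had the 11th lowest difference, Dppa4 ranked 282 from the bottom, Dppa2 977 and Dppa5a 3882. The percentile of Dppa2, 8.2 here, ran over 9 alternative settings from 3.1, without suffixed probe sets, to 15.7, with quantile normalization. That of Dppa4, 2.4 here, ran from 1.4 to 4.4, that of Dppa3 from 0.043 to 0.13 and that of Dppa5a from 29.1 to 46.6. Brightness bears on these places. Of 4446 genes within 1 log2 unit of the mean brightness of Dppa3, 2 had a lower difference. Of 2000 such genes around Dppa4, 60 were lower, and of 1440 around Dppa2, 168 were lower. Around Dppa5a there were 171 genes, of which 41 had a lower difference and none was 2-fold lower or higher. Their 5th and 95th percentiles were -0.66 and 0.32, a narrower spread than the -1.21 and 2.33 around Dppa3.

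**Figure D2:**
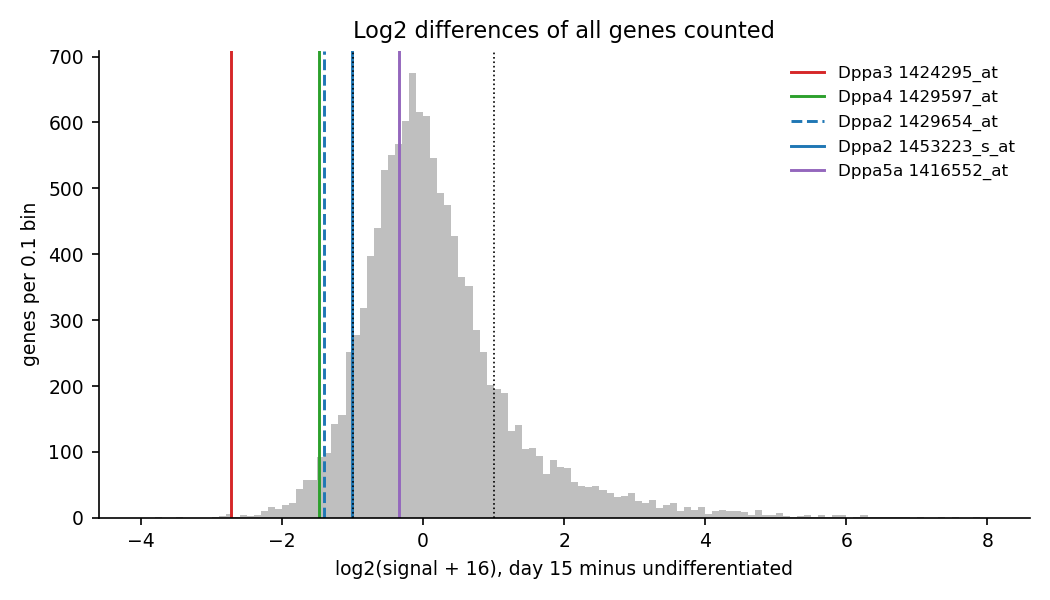
Number of genes (vertical axis, per bin of 0.1) at each log2 difference, day 15 minus undifferentiated (horizontal axis), for 11960 genes; coloured lines mark the Dppa probe sets, dashed for 1429654_at of Dppa2, and dotted lines mark 2-fold. Dppa3 (-2.73) lies in the left tail, Dppa4 (-1.48) and Dppa2 (-1.41 and -1.01) on the left shoulder, and Dppa5a (-0.34) within the body.

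Dppa5a was read close to the top of the array's range, which reached 17939 in undifferentiated cells and 17574.5 at day 15. Only 17 other genes were at least as bright in undifferentiated cells, most of them for ribosomal proteins. Their differences ran from -0.28 (Hspa8, a constitutive chaperone) to 0.059 (Rps20), with a median of -0.18, and 16 of the 17 were below 0. Dppa5a, at -0.34, was lower than each of them. These genes were taken by their undifferentiated signal, so their values describe the bright range and test nothing. Bacterial hybridization controls of like brightness (Cre, 10655 to 16217.7 at day 15 and 8340.1 to 13794.6 in undifferentiated cells) had a mean log2 ratio of 0.27, against 0.49 for the dimmer BioB controls. Whether the Dppa5a difference is compressed by this brightness was not tested.

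**Figure D3:**
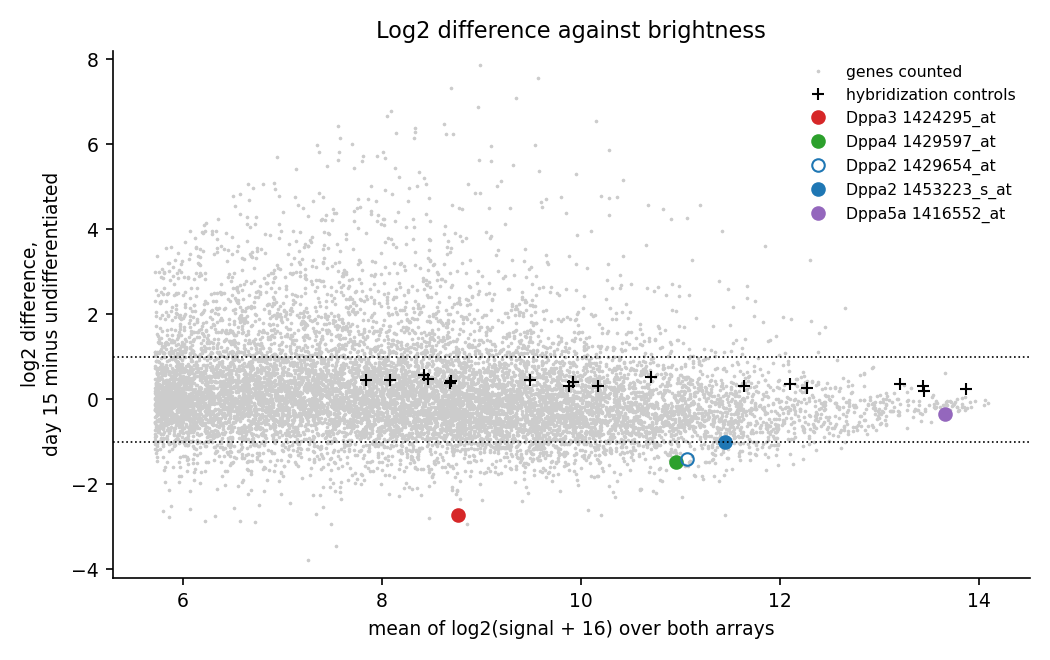
Log2 difference, day 15 minus undifferentiated, against the mean of log2(signal + 16) over both arrays, for 11960 genes (grey), 18 hybridization controls (crosses) and the Dppa probe sets (coloured, open for 1429654_at of Dppa2). The cloud narrows to the right, where Dppa5a lies at -0.34, while Dppa3 lies on its lower edge at -2.73.

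The genes nearest to each member were those with the closest log2 difference among genes within 0.5 of its mean brightness, over the 2 arrays. Nearest to Dppa3 were the piRNA pathway gene Tdrd12 (119.1 at day 15 and 918.9 in undifferentiated cells), Rasgrp2, a guanine nucleotide exchange factor (151.7 and 1263.2), and Calcoco2, an autophagy receptor gene (210.1 and 1147.3). They lay 0.063, 0.20 and 0.37 away, so few genes of that brightness had a difference like that of Dppa3. A dim Rasgrp2 probe set (40.1 at day 15 and 50.1 in undifferentiated cells) stood at -0.24, and its other ones at -2.93 and -2.38. Dppa4 was matched within 0.0021 by the kinase gene Pim3, the cell cycle factor gene Mybl2 and the tubulin gene Tuba4a. A dim Pim3 probe set (38.7 at day 15 and 35.8 in undifferentiated cells) stood at 0.08, and a brighter one (511.6 and 1854.2) at -1.83. Dppa2 was matched within 0.0030 by Abce1, which recycles ribosomes, the histone variant gene H2ax and the Polycomb gene Phc1. Dppa5a was matched within 0.027 by Morf4l2, the translation helicase gene Eif4a1 and the lactate dehydrogenase gene Ldha. Another bright Eif4a1 probe set stood at -0.013, and other Morf4l2 probe sets ran from -0.58 to -0.16.

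Genes that flank the Dppa loci did not all follow them. Dppa4 and Dppa2 are adjacent protein-coding genes on chromosome 16, and the next coding gene past Dppa2 is Morc1, a germ line chromatin gene. Morc1 had a signal of 719.7 at day 15 and 3226.4 in undifferentiated cells (4.48-fold lower), a larger loss than either Dppa gene beside it. On the Dppa4 side Nectin3, a cell adhesion gene, read 534.3 at day 15 and 543.7 in undifferentiated cells. Farther out, Trat1, Retnlb and Retnla past Morc1 and Cd96 past Nectin3 stayed below 35.6 on both arrays.

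Dppa3 lies on chromosome 6 between Gdf3 and Nanog, when coding genes alone are taken. Gdf3, a TGF-beta family ligand, read 584.9 at day 15 and 2697.8 in undifferentiated cells (4.61-fold lower). The transcription factor gene Nanog read 2835.2 and 5470.4 (1.93-fold lower). Farther out, the glucose transporter gene Slc2a3 read 6291.0 at day 15 and 8222.8 in undifferentiated cells, with another of its probe sets at a difference of 1.92. The RNA-editing enzyme gene Apobec1 was higher at day 15 (96.2 and 53.2), as were Foxj2 (397.8 and 191.4) and the complement receptor gene C3ar1 (68.8 and 26.2, at least 1.93-fold). Mfap5, a microfibril gene, read 38.9 at day 15 and 80.6 in undifferentiated cells. Dppa3 had the largest loss of the measured genes in this stretch.

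Dppa5a lies on chromosome 9 beside Ooep, a KH domain gene of the oocyte's subcortical maternal complex. Ooep read 1187.7 at day 15 and 2469.7 in undifferentiated cells (2.08-fold lower), a larger loss than Dppa5a. Ddx43 read 116.4 and 150.6, the mitochondrial tRNA modification gene Mto1 274.3 and 525.2, and the DNA sensor gene Cgas 72.4 and 47.0. On the far side Gsta2, Omt2a and Omt2b stayed below 35.6 on both arrays. Of the 24 annotated neighbours of any kind, 4 on each side of each locus, 12 had a probe set and 6 were bright enough to count. Of these 6, Morc1, Gdf3 and Ooep were at least 2-fold lower and none was 2-fold higher, while Apobec1 (0.70) and Cgas (0.49) had higher signals at day 15. Of the 24 protein-coding neighbours 13 were counted, with 3 at least 2-fold lower and 1 higher on log2(signal + 16). By the ratio of signals alone Foxj2 was 2.08-fold higher and Mfap5 2.07-fold lower. Their differences on the log2 scale, 0.997 and -0.82, fell short of a call. The gene called higher was C3ar1, at 1.01 on the log2 scale. Its undifferentiated signal was below 35.6, so its fold is bounded only at 1.93 or more. Over all genes the shares were 8.41% and 16.5%.

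Core pluripotency factors ran from -2.10 to -0.19 in log2 difference, against -2.73 to -0.34 for the 4 Dppa genes. Of 18 core factors, all of them counted, 11 were at least 2-fold lower and 0 higher, with a median of -1.12, against 0.00052 over all genes. The shares over all genes were 8.41% lower and 16.5% higher. On the deposited scaling all 18 lay below 0, but Klf4 (-0.19) moved to 0.0063 with quantile normalization. Another Klf4 probe set stood at -0.68 on the deposited scaling. The lowest were Lin28a, an RNA-binding protein gene (732.6 at day 15 and 3201.7 in undifferentiated cells), Sall4 (1367.0 and 4799.8), Nr5a2 (207.4 and 714.8) and Klf2 (1125.2 and 3338.4). Another Sall4 probe set stood at -0.60. Pou5f1, which encodes OCT4 and defines these stem cells, read 2932.0 at day 15 and 7837.8 in undifferentiated cells. It kept 37.4% of its signal, close to the 35.5% of Dppa4 and the 37.5% of the Dppa2 probe set without the suffix. Zfp42, also called Rex1, kept 45.8%, Nanog 51.8% and Sox2 60.8%.

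Of 8 measured genes in a chosen list of embryonic stem cell associated transcripts, all were at least 2-fold lower, with a median of -1.89. They included the de novo methylation cofactor gene Dnmt3l (783.9 at day 15 and 3556.4 in undifferentiated cells), the GTPase gene Eras (731.1 and 3191.2) and the F-box gene Fbxo15 (1354.9 and 5189.1), with Gdf3 lowest. The share lower over all genes was 8.41%. Nanog (-0.94), counted with the core factors, and the Dppa genes were left out of this list. Set among the 26 genes of both lists, Dppa3 was lower than all 26 and Dppa4 lower than 14. By its brightest probe set Dppa2 was lower than 8, while its other probe set (-1.41) lay below the median of the 26, -1.39. Dppa5a (-0.34) was lower than 1, which was Klf4 by its brightest probe set (-0.19). The other Klf4 probe set (-0.68) lay below Dppa5a. In bulk RNA, fewer stem cells and less RNA per stem cell cannot be told apart for any of these genes.

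**Figure D4:**
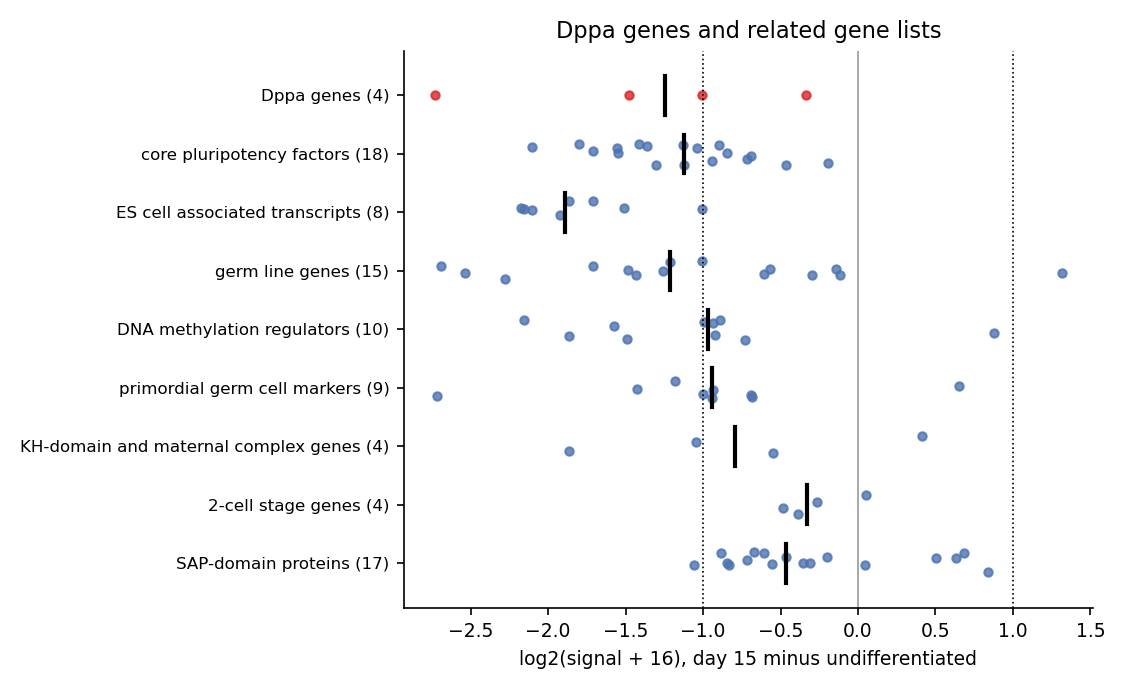
Log2 difference, day 15 minus undifferentiated (horizontal axis), of each gene counted in the Dppa group (red) and in related lists (blue), with the number of genes in brackets, medians as black bars and 2-fold as dotted lines. The medians run from -1.89 for the embryonic stem cell associated transcripts to -0.33 for the 2-cell stage genes, with the 4 Dppa genes spread from -2.73 to -0.34.

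Genes related to the Dppa proteins by function differed from list to list. Among 10 counted DNA methylation regulators, with a median of -0.97, the number at least 2-fold lower was 4 and the number higher 0. The lower genes were Dnmt3l, the de novo methyltransferase gene Dnmt3b (1242.7 at day 15 and 4572.2 in undifferentiated cells), the methylcytosine oxidase gene Tet1 (1210.8 and 3643.3) and Uhrf1 (1533.7 and 4346.2). A dim Tet1 probe set stood at 0.59, and the other Uhrf1 probe set at -2.22. Dnmt3a, another de novo methyltransferase gene, was counted at -0.93, but its other probe sets ran from -1.53 to 1.84. The one at 1.84 read 305.1 at day 15 and 73.5 in undifferentiated cells, so the direction of Dnmt3a depends on the probe set. Uhrf1, whose product DPPA3 restrains, kept 35.3% of its signal, and the maintenance methyltransferase gene Dnmt1 kept 53.6% (1237.2 and 2306.5; 79.4% and 77.2% by its other probe sets), both more than the 13.9% of Dppa3. Among 9 primordial germ cell markers, the 4 at least 2-fold lower (median of the list -0.94, 0 higher) were Ifitm1 (1069.3 and 7115.5), Tfap2c (448.8 and 1231.8), Alpl (194.7 and 461.3) and Kit (345.1 and 707.6). Beside both lists stand the shares over all genes, 8.41% lower and 16.5% higher.

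Germ line genes included losses of a size near that of Dppa3 (-2.73): Rhox9 stood at -2.69 and Rhox6 at -2.54, as did the germ cell marker Ifitm1 at -2.72. Of the 15 germ line genes counted, 9 were at least 2-fold lower and Stra8 alone was higher, with a median of -1.22. Of all genes, 8.41% were lower and 16.5% higher. The homeobox gene Rhox9 read 47.7 at day 15 and 395.3 in undifferentiated cells, its relative Rhox6 54.3 and 392.8, and Syce1, a synaptonemal complex gene, 114.7 and 617.6. Rhox5 read 693.9 and 2311.4. Stra8, the retinoic acid target that opens meiosis, was higher at day 15 (157.3 and 53.7).

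Of the 2-cell stage genes, 5 had a probe set and 4 were counted, with 0 at least 2-fold lower or higher (median -0.33). Tcstv1 read 50.8 at day 15 and 77.5 in undifferentiated cells, Zfp352 61.8 and 85.7, Tcstv3 54.6 and 69.0, and Usp17la 400.3 and 384.9. A dimmer Zfp352 probe set with the suffix x read 29.3 at day 15 and 75.4 in undifferentiated cells, a difference of -1.01. Duxf3, which encodes DUX, stayed below 35.6 on both arrays (13.0 and 15.6). Most of these signals were dim, so the list says little in either direction.

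Of 17 counted genes for other SAP domain proteins, 0 were at least 2-fold higher and 1 was lower, with a median of -0.46. Over all genes 8.41% were lower and 16.5% higher, so 1 lower gene of 17 is near the share of all genes. It was the SUMO ligase gene Pias2 (1101.3 at day 15 and 2310.1 in undifferentiated cells), with another probe set at 0.01. The KH domain and maternal complex list had 4 counted genes and a median of -0.80, with 0 higher and 2 at least 2-fold lower. The lower genes were Ooep and Khdc3, which belongs to the same gene family as Dppa5a and read 96.9 at day 15 and 394.9 in undifferentiated cells, 24.5% of its signal against 79.2% for Dppa5a.

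Markers of other cell types moved in the same pair of samples. The fibroblast and feeder list had 10 of its 11 counted markers at least 2-fold higher, with 0 lower, and the summed signal of the list was 53271 at day 15 and 5373 in undifferentiated cells. Most of the undifferentiated sum came from Vim (13529.3 at day 15 and 3030.2 in undifferentiated cells) and Fn1 (6841.1 and 1924.0). Smooth and cardiac muscle markers were higher for 7 of 10 (summed signals of 22375 and 1037) and endoderm markers for 5 of 7 (10904 and 422.5), with 0 lower in either list. Much of the muscle sums came from Acta2 (11495.4 at day 15 and 464.8 in undifferentiated cells) and Tagln (6397.3 and 225.7). Much of the endoderm sums came from Col4a1 (8177.4 and 213.9). The cardiac genes Myh6 (0.31), Myh7 (0.59) and Nkx2-5 (0.44) were less than 2-fold higher. The filter at the 75th percentile left 2 of the muscle and 1 of the endoderm markers at least 2-fold higher. Neural markers were higher for 3 and lower for 3 of 8 (2595 and 2174), and blood and endothelial markers higher for 3 and lower for 2 of 7 (812.4 and 522.6). Over all genes 16.5% were higher and 8.41% lower. No listed marker was at 0, but Fap, Alb, Apoa2, Dcx, Ptprc and Myh11 stayed below 35.6 on both arrays. The part of this change in cell types in the Dppa values was not tested.

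**Figure D5:**
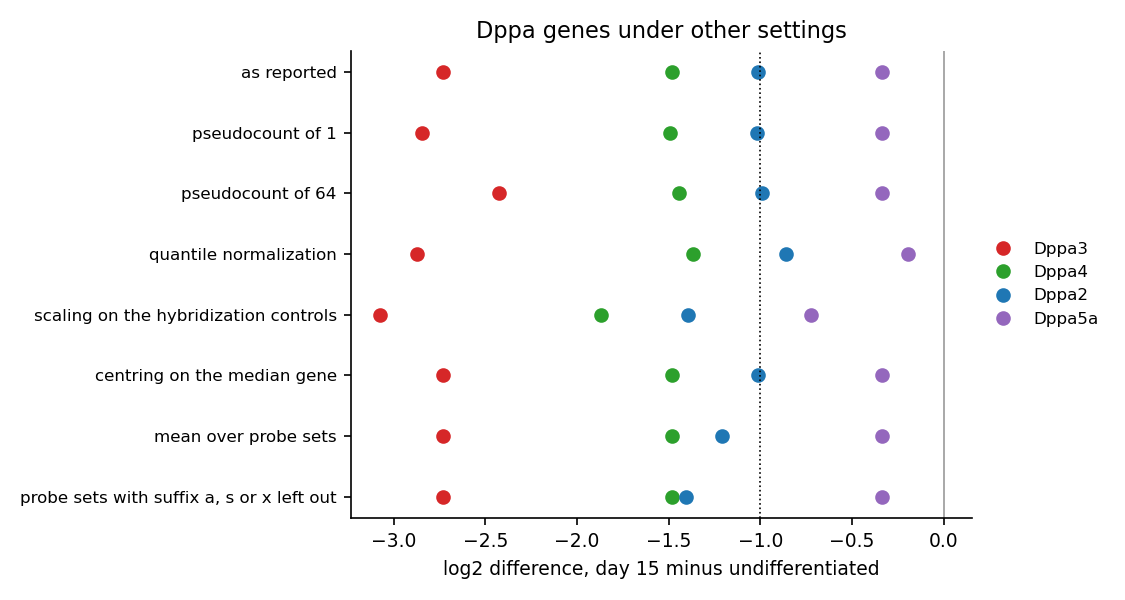
Log2 difference, day 15 minus undifferentiated (horizontal axis), of Dppa3, Dppa4, Dppa2 and Dppa5a under 8 settings (rows), with 2-fold as a dotted line. Dppa3 stays between -3.08 and -2.43 and Dppa5a between -0.73 and -0.19, while Dppa2 lies on both sides of 2-fold, between -1.41 and -0.86.

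The plot of the members under other settings shows that the order of the 4 genes was the same in all 8. Quantile normalization brought Dppa2 to -0.86 and a pseudocount of 64 brought it to -0.99, so that 2 members and not 3 were then at least 2-fold lower. Scaling on the hybridization controls moved Dppa5a to -0.73. The log2 difference of Dppa3 minus that of Dppa5a stayed between -2.68 and -2.09 throughout.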

How the data were processed

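Total RNA, purified on columns with DNase treatment, was labelled as biotinylated cRNA by the Affymetrix protocol, per the labels' protocols. The authors deposited linear signal intensity for 45101 probe sets on each array. The sources used here do not give the summarising software or a genome build. With the 2% dimmest and 2% brightest probe sets trimmed, both arrays averaged 250.0, a common level that the deposited intensity already had. Median signals were 39.0 at day 15 and 35.1 in undifferentiated cells. No detection calls were used; 15 bacterial controls without target reached at most 35.6, which serves as the bound for "at least" folds.

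The 64 control probe sets were set aside. Of the other 45037, 34945 named 1 gene in the platform annotation, 932 several and 9160 none. Symbols were updated through the RefSeq table of GRCm38.p6 with 34741 matched on gene identifier and 143 on symbol, while 61 kept the annotation's name. This gave 18193 genes, of which 11960 passed the filter at the median brightness of all probe sets (a signal of 36.5). Of the 4 members all passed. A call is an absolute difference of at least 2-fold on log2(signal + 16). Folds in the text are ratios of signals. With 1 array per group no test was run, and the number of arrays limits the precision.

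The members, gene lists and comparisons were chosen with earlier results of these data known. The rule for named genes took all member probe sets, the 3 genes nearest to each member, 4 neighbours on each side of each locus, up to 4 members of each list past 2-fold, and Pou5f1, Sox2, Nanog, Gdf3, Uhrf1, Dnmt1, Khdc3 and Zfp42. Genes outside it, such as the protein-coding neighbours, Klf4, Stra8 and the genes of the 2-cell list, were named after their values were seen. Promoter sequences of the members were not analysed here. Alternatives were a pseudocount of 1 or 64, quantile normalization, scaling on 18 hybridization controls, centring on the median gene, averaging a gene's probe sets, dropping those whose suffix is a, s or x, no filter and a filter at the 75th percentile. The gene table code was tested on simulated data. Python 3.11.15, pandas 2.3.3 and numpy 2.4.6 were used.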

Additional observations from a re-analysis of the deposited data

How the results depend on the processing

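The direction of all 4 Dppa genes and their order were the same under the 7 alternatives of scaling, pseudocount and probe set choice. Counts over other genes moved more. Scaling on the hybridization controls, which shifted the median of all genes by -0.36, gave 2248 genes at least 2-fold lower at day 15, against 1006 as deposited. The share of calls that were higher was then 37.7%, and 54.6% with quantile normalization (median shifted by -0.13), against 66.3% as deposited. The filter at the 75th percentile counted 6995 genes and left 907 at least 2-fold higher, against 1975 of 11960. The balance of calls moved as well, with 57.0% of them higher, 9.79% of genes lower and a median of -0.12. Under scaling on the hybridization controls the members at least 2-fold lower numbered 9 of the DNA methylation regulators, 8 of the primordial germ cell markers and 6 of the SAP domain proteins. Quantile normalization gave 7 DNA methylation regulators, 1 KH domain and maternal complex gene and 0 SAP domain genes. Dropping probe sets whose suffix is a, s or x left 2 DNA methylation regulators, and with the mean over probe sets 0 SAP domain genes. The filter at the 75th percentile left 3 germ line genes and 1 KH domain and maternal complex gene. Without a filter the KH domain median was 0.062, and the 2-cell median was 0.054 with the stricter filter, from fewer genes. Taking protein-coding neighbours, a choice made after seeing the data, gave 3 of 13 counted neighbours at least 2-fold lower and 1 higher, against 3 and 0 of 6. The 2-cell list had 0 genes past 2-fold in either direction under all 9 alternatives, although a dimmer Zfp352 probe set stood at -1.01 as deposited. Blood and endothelial markers at least 2-fold higher numbered 0 to 4, muscle markers 2 to 7 and endoderm markers 1 to 6. No paired analysis was possible because each group has 1 array. The single array per condition, and brightness near the top of the range for Dppa5a, limit these values.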
